A study of Mus musculus with 2 samples.

Results

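Hba-a1 and Hba-a2 are the adult alpha globin genes of the mouse, and their transcripts were followed through the white blood cells of adipose tissue. The pair was chosen from measured values of these same cells, because it stood out in 1 lymphoid cluster and between the diets in earlier results. It makes up 2 of the 28692 genes listed. The values that led to the choice are therefore given as a description, with no test.

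The cells were CD45+ leukocytes resident in the adipose tissue of adult wild-type C57BL/6 mice, told apart from cells inside blood vessels by an intravenous label. The control mice ate chow and the other mice a ketogenic diet, low in carbohydrate and known to raise blood ketone bodies, for 1 week. Each diet is represented by 1 library of single cells, and the number of mice behind each library is not given in the sources used here. Diet and library therefore cannot be told apart, and no p-value was computed.

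Haemoglobin carries oxygen in red blood cells and is built from alpha and beta globin chains, each holding a haem group. Developing red cells make the 2 kinds of chain in balance, and free alpha chains are unstable. Alpha globin is also known outside red cells, for example in the wall of small arteries, where it binds nitric oxide. Group 2 innate lymphoid cells (ILC2) are tissue-resident lymphocytes that make IL-5 and IL-13 and that help keep adipose tissue metabolically healthy.

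In GRCm38 coordinates Hba-a1 (ENSMUSG00000069919) lies at chr11:32283511-32284465 and Hba-a2 (ENSMUSG00000069917) at chr11:32296489-32297298, both on the plus strand with 3 exons in the main transcript. The 2 genes are 12023 bases apart, with the theta globin gene Hbq1b between them. Their coding sequences of 426 bases differ by 1 substitution, and the annotated 3′ untranslated regions of 74 and 90 bases have no substitution over their shared stretch. Reads from one gene can therefore be counted for the other or dropped, so their separate values are uncertain and their sum is used wherever the split does not matter. The beta globin genes Hbb-bs and Hbb-bt lie on chromosome 7.

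The promoters are shown because the 2 alpha genes were found in the same cells, nearly without beta globin. Each line gives the 250 bases before the RefSeq gene start (assembly GRCm38.p6), 5′ to 3′ on the gene's own strand. The annotations differ at both Hba-a1 and Hbb-bs, whose GENCODE models begin upstream of the RefSeq starts. Part of each stretch therefore lies inside the GENCODE model of its gene. The Hba-a1 stretch is chr11:32283422-32283671 on the plus strand and the Hbb-bs stretch is chr7:103827929-103828178 on the minus strand. Capitals mark 4 motifs searched on both strands, which are TGATAA (a form bound by GATA factors), CCAAT (the CCAAT box), CACCC (a core bound by many KLF factors) and TATAA (the TATA box).
Hba-a1: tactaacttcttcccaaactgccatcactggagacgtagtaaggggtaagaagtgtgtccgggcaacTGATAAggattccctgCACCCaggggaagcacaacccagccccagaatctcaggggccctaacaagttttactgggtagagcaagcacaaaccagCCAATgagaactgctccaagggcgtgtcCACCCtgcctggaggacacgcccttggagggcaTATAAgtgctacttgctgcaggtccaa
Hbb-bs: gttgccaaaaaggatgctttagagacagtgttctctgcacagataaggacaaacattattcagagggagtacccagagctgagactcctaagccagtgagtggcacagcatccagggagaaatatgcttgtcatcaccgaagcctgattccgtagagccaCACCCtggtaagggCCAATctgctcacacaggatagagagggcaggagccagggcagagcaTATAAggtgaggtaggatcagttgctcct

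The Hba-a2 window, shifted by 3 bases, was identical to that of Hba-a1 at 297 of 297 overlapping bases. In Hba-a1 the letters TGATAA begin 183 bases before the start. CACCC begins 167 and 60 bases before it, CCAAT 88 bases and TATAA 27 bases. Hbb-bs holds CACCC at 90, CCAAT at 76 and TATAA at 29 bases before its start, and TGATAA does not occur in its window. Of 32851 RefSeq promoter windows of 300 bases, 9.05% hold TGATAA, while 37.4% hold the CCAAT box, 57.5% hold CACCC and 24.9% hold the TATA box. All 4 occur together in 0.630% of them. GATA factors also bind AGATAA, which was not searched and which the Hbb-bs stretch holds in lower case. A match is a run of letters and not a shown binding site.

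The chow library held 4545 cells and 21570910 UMIs (unique molecular identifiers, each standing for 1 captured transcript), and the ketogenic library 5614 cells and 26041785 UMIs, with medians of 3469 and 3461.5 UMIs per cell. The authors' deposited table put 10017 of these 10159 cells into 13 clusters without naming them. Cluster 0 is called ILC2-like here, since 12 of 12 ILC2 markers were raised in it, among them Gata3, Il1rl1, Il5 and Calca. Hba-a1 itself ranked 2 among its leading genes, so the cluster may be partly defined by the gene described. Square brackets give 95% intervals for counting error only, and levels are CPM, a gene's UMIs scaled in the usual way to all UMIs of the same cluster and library.

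Alpha globin transcripts stood highest in the ILC2-like cluster 0 in both libraries. Under chow its 854 cells held 249 Hba-a1 and 38 Hba-a2 UMIs, together 121 CPM [107–135]. Its 1310 ketogenic cells held 2250 Hba-a1 and 370 Hba-a2 UMIs, together 601 CPM [578–624]. Cluster 0 thus held 80.8% of all alpha globin UMIs of the clustered chow cells and 89.9% of those of the clustered ketogenic cells.

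The other clusters were far lower. Under the ketogenic diet cluster 7, a T cell cluster described below, followed at 96.9 CPM [81.3–114] and the cycling cluster 10 at 22.0 CPM [15.3–30.5]. Unnamed cluster 8 had 15.9 CPM, B and plasma-like cluster 9 had 11.95, and the other 8 clusters lay between 2.89 and 7.18 CPM. The intervals of clusters 0, 7 and 10 did not overlap one another, while from cluster 10 downwards each cluster's interval overlapped that of the next.

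Under chow the order below cluster 0 was not resolved. The γδ T-like cluster 11, the cell type named in the study's title, came next at 21.1 CPM [5.74–53.9], which rests on 4 UMIs in 2 cells. Cluster 7 had 10.0 CPM, and the remaining clusters with any UMI lay between 1.11 and 6.18 CPM, each interval overlapping that of its neighbour. Clusters 2, 4, 9 and 12 had 0 alpha globin UMIs, where 3 counts would have given 4.83, 3.98, 4.25 and 7.70 CPM.

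**Figure D1:**
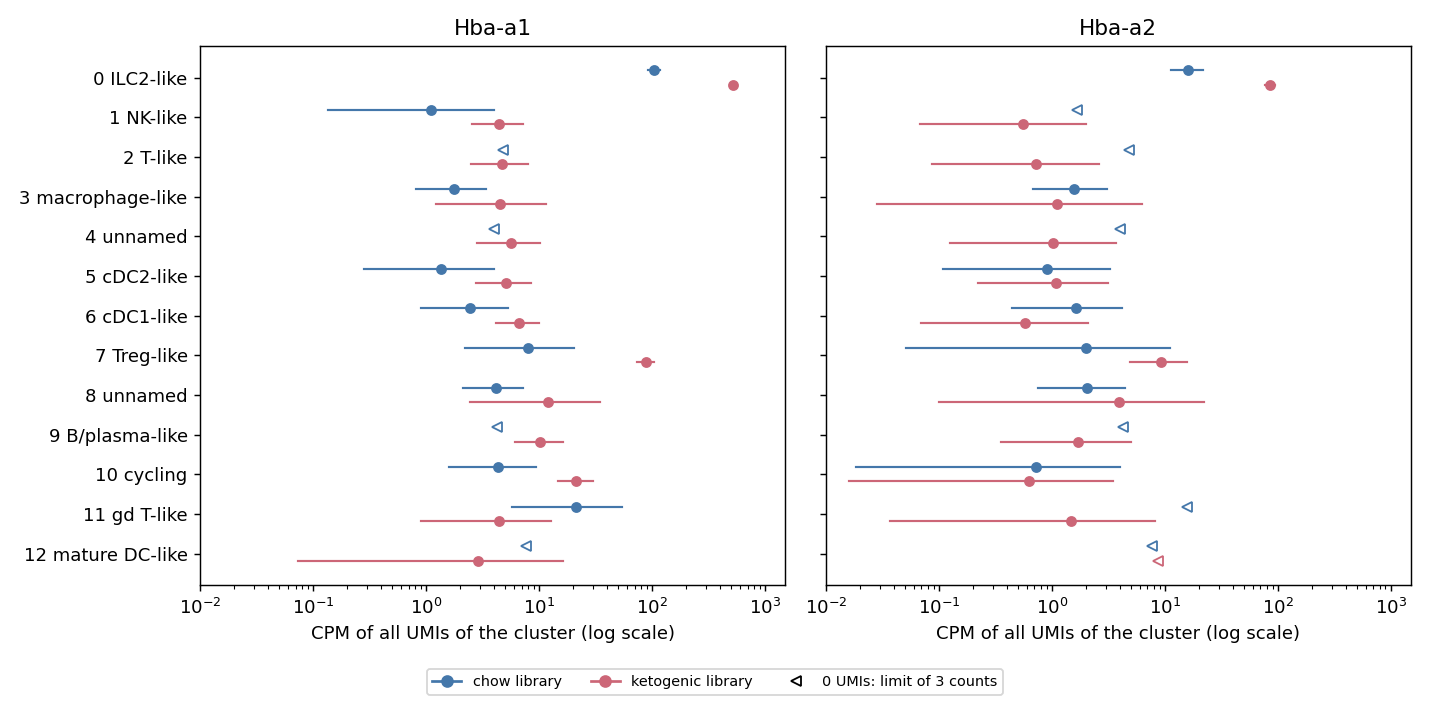
Level of Hba-a1 (left) and Hba-a2 (right) in each of the 13 clusters, in CPM of the cluster's UMIs on a log axis, with 95% Poisson intervals; 1 point per library, chow in blue and ketogenic in red, and open triangles where no UMI was counted. Cluster 0 lies to the right of all other clusters for both genes, and cluster 7 of the ketogenic library comes next for Hba-a1 at 87.7 CPM.

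Against the summed natural killer, T and γδ T clusters (1, 2, 4, 7 and 11), alpha globin in cluster 0 was 42.4-fold higher [23.3–85.8] in the chow library and 33.5-fold higher [28.9–39.0] in the ketogenic library. Without cluster 7 the ratios were 67.6 [30.7–186] and 108 [81.8–146]. The clusters were built from the same cells and may have used these genes, so this contrast has no test.

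Free RNA in the droplets gives stray UMIs in cells that do not make a transcript, so the share of cells with a UMI was set beside that in natural killer-like cluster 1. In cluster 0, 133 chow cells (15.6% [13.2–18.2]) and 669 ketogenic cells (51.1% [48.3–53.8]) had an alpha globin UMI, at median depths of 2610 and 3133 UMIs. In cluster 1 the shares were 0.276% and 1.51% at median depths of 2296 and 3147 UMIs. With every cell thinned to 1000 UMIs, the shares were 8.06% and 30.8% in cluster 0 against 0.132% and 0.498% in cluster 1. The part of free RNA in these shares was not tested.

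The levels of the ILC2 markers of cluster 0 were set beside that of alpha globin. Alpha globin in cluster 1 stood at 0.922% of its cluster 0 level in the chow and at 0.833% in the ketogenic library. The 12 ILC2 markers stood there at a median of 2.58% and 2.80% of their own cluster 0 levels. Of these markers, 2 on chow and 0 on the ketogenic diet had a lower percentage than alpha globin. They ranged widely, from 0.522% for Il5 to 13.7% for Klrg1 on chow. In the ketogenic library they ranged from 1.51% for Hs3st1 to 12.3% for Gata3. Whether cells of cluster 1 make some of the markers was not tested, so their median need not measure stray RNA. In the cDC1-like cluster 6, a dendritic cell cluster, the chow values had the opposite order, with alpha globin at 3.40% of its cluster 0 level, the markers at a median of 1.60% and 12 of 12 markers below alpha globin. Under the ketogenic diet alpha globin stood there at 1.19% and the markers at a median of 3.32%, with 1 marker below alpha globin.

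Between the libraries, both alpha globin genes were about 5-fold higher in cluster 0 under the ketogenic diet. Hba-a1 went from 105 CPM [92.1–119] to 516 CPM [495–538], a ratio of 4.93 [4.32–5.64]. Hba-a2 went from 16.0 CPM [11.3–21.9] to 84.9 CPM [76.4–94.0], a ratio of 5.31 [3.80–7.63]. On the log2 scale with 0.5 added to each count, the differences were 2.30 and 2.39.

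These ratios stand near the top of all genes measured in cluster 0, which is how the pair came to be chosen. Of 5402 genes with at least 100 UMIs there, 41 (0.759%) were at least 2-fold higher under the ketogenic diet and 60 at least 2-fold lower, around a median log2 ratio of 0.08. Hba-a2 ranked 4 and Hba-a1 ranked 5. The mast cell protease genes Tpsb2 and Cma1 ranked above them with 99.3% and 97.6% of their ketogenic UMIs in 1 cell each. No single cell carried alpha globin in this way, since the cell with the most held 1.83% of the ketogenic alpha globin UMIs.

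Under the ketogenic diet a larger share of cells had an alpha globin UMI, and cells with any held more of them. A higher level in every cell would raise both, so the 2 were not told apart. Under chow 721 of 854 cells had no alpha globin UMI, 63 had 1, 49 had 2 or 3, 21 had 4 to 9, and none had 10 or more. Under the ketogenic diet 641 of 1310 cells had none, 207 had 1, 210 had 2 or 3, 196 had 4 to 9, and 56 had 10 or more. The highest cell held 7 UMIs under chow and 48 under the ketogenic diet, where the next held 26. Cells with any alpha globin held on average 2.16 UMIs under chow and 3.92 under the ketogenic diet.

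**Figure D2:**
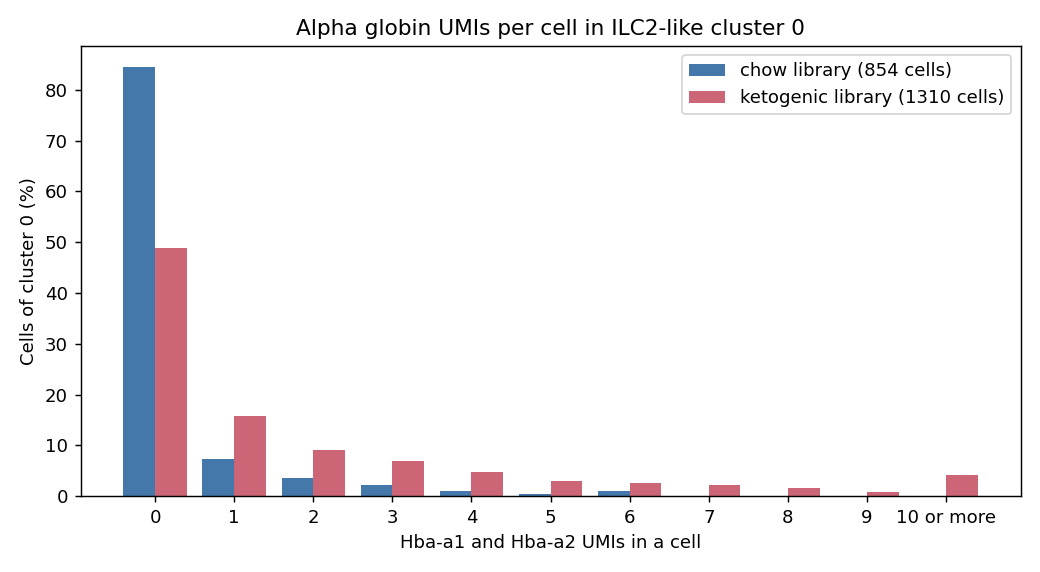
Share of the cells of cluster 0 (vertical axis, percent) by their number of alpha globin UMIs (horizontal axis), chow in blue (854 cells) and ketogenic in red (1310 cells). Cells without alpha globin made up 84.4% in the chow library and 48.9% in the ketogenic library, and cells with 10 or more were seen in the ketogenic library alone.

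Alpha globin was spread unevenly among the cells of the cluster. At the cluster's mean level, scaled to each cell's depth, counting error would leave 71.9% of chow and 15.3% of ketogenic cells with none. The shares observed were 84.4% and 48.9%. The variance over cells was 2.87 times the mean in chow cells and 6.16 times in ketogenic cells. The 131 ketogenic cells with the most held 51.1% of the cluster's alpha globin UMIs, and the 86 chow cells with the most held 83.6%.

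The 2 genes were found in the same cells. Under the ketogenic diet 240 cells held both, 424 Hba-a1 alone and 5 Hba-a2 alone. Hba-a1 was thus present in 98.0% of the cells with Hba-a2 and in 39.8% of those without it. Under chow the corresponding shares were 97.1% of 34 cells and 12.1% of the others. Hba-a2 made up 13.2% [9.54–17.7] of the alpha globin UMIs of cluster 0 on chow and 14.1% [12.8–15.5] on the ketogenic diet, a split that is uncertain because the genes are nearly identical.

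Depth moved with detection and is given beside it. Alpha globin positive cells had a median of 2907 UMIs against 2533 for negative cells under chow, and 3333 against 2938 under the ketogenic diet. When the cells of each library were ordered by depth into 5 groups, the share with alpha globin went from 4.71% to 26.3% in the chow library and from 34.7% to 67.9% in the ketogenic one. The level also went up, from 49.4 to 155 CPM and from 315 to 742 CPM. In cells of 2500 to 3500 UMIs the diet ratio of Hba-a1 was 4.07. The share in the shallowest ketogenic group, 34.7% [29.0–40.8], lay above that of the deepest chow group, 26.3% [19.9–33.6], with overlapping intervals.

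**Figure D3:**
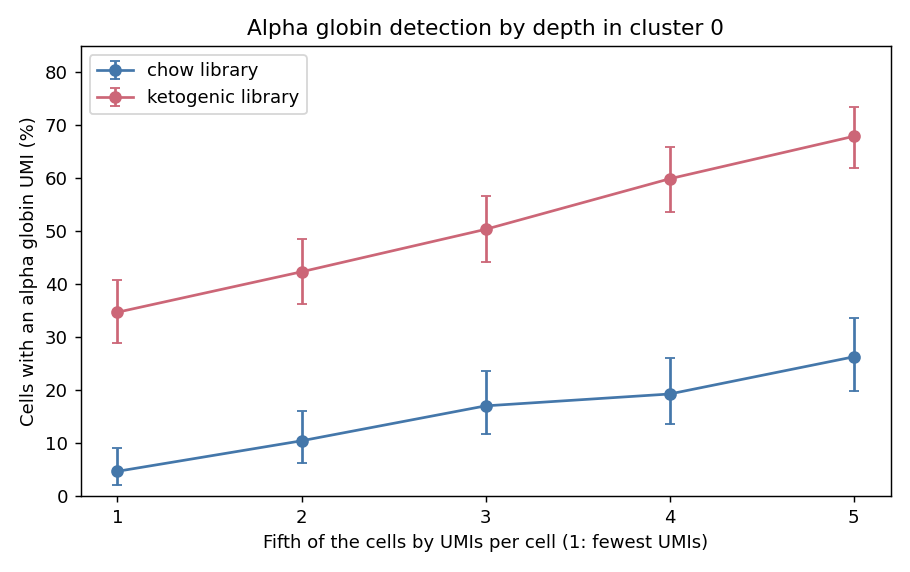
Share of the cells of cluster 0 with an alpha globin UMI (percent) in 5 groups of cells ordered by UMIs per cell, group 1 being the shallowest, with exact binomial 95% intervals, chow in blue and ketogenic in red. The share went up with depth in both libraries, and all ketogenic groups (34.7% to 67.9%) lay above all chow groups (4.71% to 26.3%). The intervals of the shallowest ketogenic group and the deepest chow group overlapped.

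Beta globin, the partner chain, was nearly missing from the same cells. Cluster 0 held 1 UMI of Hbb-bs and 0 of Hbb-bt under chow, and 3 and 2 under the ketogenic diet. The alpha share of adult globin UMIs was therefore 99.7% [98.1–99.99] in the chow library and 99.8% [99.6–99.9] in the ketogenic one. In the ketogenic library, 3 of the 669 alpha globin positive cells held a beta globin UMI.

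Ketogenic cluster 7, with 137 alpha to 1 beta UMI, had an alpha share of 99.3% [96.0–99.98], which overlapped that of cluster 0. In the myeloid clusters (3, 5, 6, 8 and 12) the counts were 50 alpha to 24 beta UMIs under chow, an alpha share of 67.6% [55.7–78.0], and 52 to 14 under the ketogenic diet, 78.8% [67.0–87.9]. Over all cells outside cluster 0 the alpha share was 67.3% [57.3–76.3] in the chow library and 89.4% [85.6–92.5] in the ketogenic library, where cluster 7 gave 137 of the 295 alpha and 1 of the 35 beta UMIs. The split between the alpha genes also differed under chow, with Hba-a2 at 32.4% [21.5–44.8] of alpha globin UMIs outside cluster 0. This value comes mostly from the myeloid clusters, at 40% [26.4–54.8] of 50 UMIs, while the natural killer, T and γδ T clusters had 9.09% [0.230–41.3] of 11 UMIs. The chow intervals over all cells outside cluster 0 did not overlap those of cluster 0 for either measure. Hba-a2 made up 10.5% [7.25–14.6] outside cluster 0 in the ketogenic library, which overlapped the 14.1% [12.8–15.5] within it, and the difference between the libraries was not tested.

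**Figure D4:**
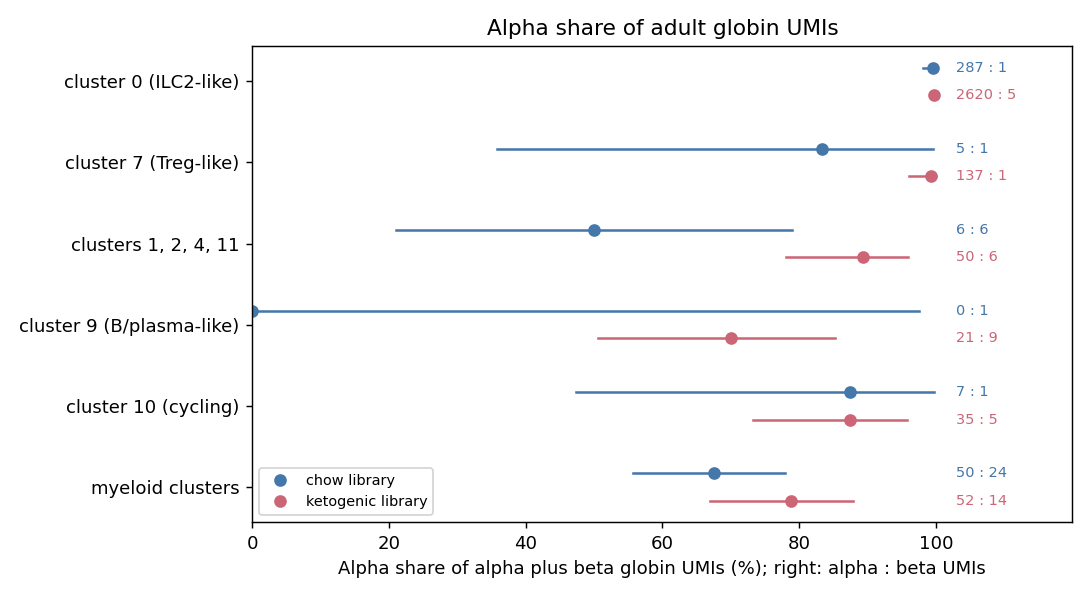
Alpha share of all alpha and beta globin UMIs (percent) in cluster 0, cluster 7 and other groups of clusters, with exact binomial 95% intervals, chow in blue and ketogenic in red; the alpha and beta UMIs are printed at the right. Cluster 0 in both libraries and cluster 7 of the ketogenic library lie at 99% or above, and the myeloid clusters at 67.6% and 78.8%.

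Other transcripts of red blood cells were also nearly missing from cluster 0. Of 16 red cell markers, 15 were listed, and 11 of them had 0 UMIs there, among them Slc4a1 (a membrane protein of red cells), Alas2 (the red cell enzyme that starts haem synthesis), Klf1 and Epor. Summed over the list, the red cell markers gave 5 UMIs (2.10 CPM) in the chow library and 9 UMIs (2.06 CPM) in the ketogenic library. Of 11 other globin genes, 8 had 0 UMIs in cluster 0, including the embryonic Hba-x and the muscle oxygen store Mb. Platelet markers gave 10 and 7 UMIs.

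Markers of other white cells differed between the libraries within cluster 0. The 10 macrophage markers summed to 703 CPM in the chow and 154 CPM in the ketogenic library, and 9 of them were at least 2-fold lower under the ketogenic diet, none higher, beside 4.86% of all 10373 genes with at least 10 UMIs at least 2-fold lower. Neutrophil markers stood at 117 and 8.49 CPM. B cell markers stood at 433 and 469 CPM and plasma cell markers at 299 and 223 CPM. All 4 B cell markers with at least 10 UMIs were higher under the ketogenic diet, 2 of them at least 2-fold. Over all genes the shares were 53.9% and 3.63%. Of 5 such plasma cell markers, 1 was higher and 1 at least 2-fold lower. Alpha globin in the macrophage-like cluster 3 was 3.35 CPM in the chow library, where that cluster held 859 cells, and 5.60 CPM in the ketogenic library, where it held 145. The part of these markers in the alpha globin difference was not tested.

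Outside cluster 0, cells rich in alpha globin were few. Under the ketogenic diet 252 cells of cluster 0 held 4 or more alpha globin UMIs, against 18 cells in all other clusters. Of these 18, 14 lay in cluster 7, 2 in cluster 10, 1 in cluster 5 and 1 in cluster 9. All 18 held a UMI of Il1rl1, the IL-33 receptor, or Gata3, ILC2 markers that some Treg cells also carry, and 0 held beta globin. Most cells of cluster 7 there held such UMIs, 229 of 328 for Il1rl1 and 230 of 328 for Gata3. Under chow 21 cells of cluster 0 and 1 cell of cluster 8 held 4 or more.

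Cluster 7 had the next highest level under the ketogenic diet. It is called regulatory T (Treg)-like from its markers, with 7 of 7 Treg markers raised, and 9 of 12 ILC2 markers were raised in it as well. Its 160 chow cells held 5 alpha globin UMIs in 3 cells, 10.0 CPM [3.26–23.4], and without the cell with the most the level was 4.04 CPM. Its 328 ketogenic cells held 137 alpha globin UMIs in 49 cells, 96.9 CPM [81.3–114], a ratio of 9.65 [4.04–30.2]. Beta globin counted 1 UMI in each library.

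Within cluster 7 of the ketogenic library, alpha globin lay mainly in cells without Foxp3, the transcription factor of Treg cells. The 100 cells with a Foxp3 UMI held 27.1 CPM of alpha globin [13.5–48.6] in 4 cells. The 228 cells without one held 125 CPM [104–149] in 45 cells. Cells with an Il5 or Il13 UMI had 171 CPM [129–222] against 74.5 CPM [59.2–92.6] in those without.

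The 49 alpha globin positive cells of cluster 7 as a group held T cell receptor transcripts. Alpha globin was more frequent in the few cells without a Cd3 UMI, at 9 of 20 (45.0% [23.1–68.5]), than in those with one, at 40 of 308 (12.99% [9.44–17.3]). The cells without a Cd3 UMI were deeper, with a median of 6077 against 3442 UMIs, and the CPM of alpha globin overlapped, at 127 [71.3–210] and 94.1 [78.1–112]. Trac, Trbc1 and Trbc2 summed to 2215 CPM in the 49 positive cells and 2702 CPM in the 279 negative cells of the cluster, against 815 CPM in the positive cells of cluster 0. Cd3e, Cd3d and Cd3g summed to 1459 CPM and 1766 CPM, against 157 CPM in the positive cells of cluster 0. Ctla4, an inhibitory receptor of Treg cells, stood at 38.2 CPM [18.3–70.2] in positive and 383 CPM [348–420] in negative cells. Foxp3 stood at 30.6 CPM [13.2–60.2] and 123 CPM [104–145]. Il13 went the other way, at 95.5 CPM [61.8–141] against 9.54 CPM [4.76–17.1], as did Hs3st1 at 130 CPM [89.9–181] against 51.2 CPM [39.0–66.0]. Other ILC2 markers differed in their direction. Il5 stood at 264 CPM [205–334] in positive and 147 CPM [126–171] in negative cells and Calca at 141 CPM [99.5–195] and 45.1 CPM [33.7–59.2]. Areg was lower in positive cells, at 947 CPM [833–1073] against 1565 CPM [1494–1639]. Il1rl1 stood at 306 CPM [242–380] against 396 CPM [360.2–434] and Gata3 at 554 CPM [467–652] against 482 CPM [442–523]. Positive cells of cluster 7 were thus lower in Foxp3 and Ctla4, while ILC2 markers were higher, lower or overlapping. Doublets of a T cell and a cluster 0 cell were not called here. Without cells holding Calca or Hs3st1, both leading genes of cluster 0, the level of cluster 7 was 73.3 CPM, and without the deepest 5% of its cells 114 CPM.

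In cycling cluster 10 of the ketogenic library alpha globin levels differed with Il1rl1. Its 31 ketogenic cells with an Il1rl1 UMI had 89.3 CPM of alpha globin [60.7–127] in 6 cells, and its 123 cells without one had 3.21 CPM [0.874–8.21] in 4 cells. Of the 31 UMIs in cells with Il1rl1, 17 lay in 1 cell. In the chow library the levels overlapped, at 10.5 CPM [3.42–24.6] in 44 cells with and 2.21 CPM [0.268–7.99] in 98 cells without an Il1rl1 UMI. In the γδ T-like cluster 11, both libraries held 4 alpha globin UMIs, 3 of them in 1 cell, at 21.1 and 5.86 CPM, a ratio of 0.278 [0.0518–1.49].

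Within cluster 0, alpha globin was found both in cells with and in cells without each lymphoid transcript named here. In the ketogenic library, the 982 cells with an Il1rl1 UMI had 622 CPM [596–649] and the 328 without one 532 CPM [488–579]. Cells with Gata3 had 618 CPM [593–645] and those without 527 CPM [479–579]. The 1126 cells with a Trac, Trbc1 or Trbc2 UMI had 603 CPM [579–628] and the 184 without one 586 CPM [525–653]. Cells with a Cd3 UMI were lower, at 491 CPM [454–530] against 648 CPM [620.0–677].

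Under chow some of these splits ran the other way. The 721 cells with an Il1rl1 UMI had 110 CPM [96.3–126] of alpha globin and the 133 without one 182 CPM [140–233]. The 626 cells with a Trac, Trbc1 or Trbc2 UMI had 104 CPM [89.9–120] and the 228 without one 170 CPM [139–207]. Cells with a Cd3 UMI were lower here too, at 70.3 CPM [50.9–94.7] against 138 CPM [121–157]. Cells with Gata3 had 123 CPM [107–141] and those without 113 CPM [89.0–142].

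For cycling cells and for Il13, the CPM values stood in opposite orders in the libraries. The 37 chow cells with a UMI of the cycling genes Mki67 or Top2a had 278 CPM [200–378] of alpha globin, against 110 CPM [96.9–125] in the other 817 chow cells. In the ketogenic library the corresponding 31 cells had 426 CPM [321–555] and the other 1279 had 606 CPM [583–630], the opposite order. The share of cells with alpha globin was higher in the cycling cells of the chow library, at 40.5% [24.8–57.9] against 14.4% [12.1–17.0], and overlapped in the ketogenic library, at 61.3% [42.2–78.2] against 50.8% [48.0–53.6]. The cycling cells were deeper, with medians of 3608 against 2589 UMIs under chow and 3710 against 3119 under the ketogenic diet. The part of depth in these contrasts was not tested. Il13 stood at 384 CPM [327–447] in alpha globin positive chow cells, and at 42.1 CPM [33.5–52.3] in negative cells. In the ketogenic library it stood at 114 CPM [101–129] and 145 CPM [129–163]. The share of cells with Il13 was higher among alpha globin positive chow cells, at 14.3% [8.83–21.4] against 4.72% [3.29–6.53] (odds ratio 2.44), and overlapped in the ketogenic library, at 8.97% [6.91–11.4] against 6.55% [4.76–8.75] (odds ratio 1.13). Split by an Il5 or Il13 UMI, the order of alpha globin was the same in both libraries. Chow cells with one had 165 CPM [138–197] and those without 99.1 CPM [84.3–116]. The ketogenic levels were 687 CPM [642–735] and 567 CPM [541–594]. Cells with such a UMI were deeper, with medians of 2933 against 2469.5 UMIs and 3601.5 against 3023.5. The difference between the libraries in the contrasts of this paragraph was not tested.

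Co-detection was scored for every gene as the odds ratio of finding its UMIs in cells of cluster 0 with and without alpha globin, combined over 5 depth groups by the Mantel-Haenszel method. Of 4460 genes found in at least 5% of the cells of both libraries, 25 could not be given an odds ratio in both and were left out. Of the other 4435, 2 (0.0451%) had an odds ratio of at least 2 in both libraries and 0 (0%) had one of at most 0.5 in both. In the chow library alone, with 133 positive cells, 101 genes lay at 2 or above and 107 at 0.5 or below. In the ketogenic library, with 669 positive cells, the numbers were 13 and 4. The same side of 1 in both libraries was taken by 56.1% of genes. Few genes thus separated alpha globin positive from negative cells in both libraries at this depth.

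The 2 genes past the threshold were Serf2 and Igfbp4. Neither passed with cells thinned to 1000 UMIs, where 1924 genes were tested, and Serf2 did not pass when positive cells were counted from 2 alpha globin UMIs. Igfbp4, a binding protein for insulin-like growth factors, was found in 21.8% of positive and 9.71% of negative chow cells (odds ratio 2.19), and in 17.5% and 7.80% of ketogenic cells (odds ratio 2.13). Serf2 was found in 97.0% against 91.0% of chow cells (odds ratio 2.21) and in 96.6% against 91.6% of ketogenic cells (odds ratio 2.13). The next 8 of the 10 highest were Cd52 (1.99 and 3.14 under chow and the ketogenic diet), a small surface glycoprotein of lymphocytes, the class I antigen gene H2-Q7 (2.47 and 1.87), Tmem176b, Thyn1, the T cell growth factor Il2 (1.69 and 1.82), Rab20, the AP-1 factor Junb and Mcur1. Of these, Cd52 and Junb were found in over 95% of cells, so their odds ratios rest on the few cells without them.

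The 10 lowest had odds ratios between 0.138 and 0.667 in the 2 libraries. They were Rpl27, Scnm1, the chaperone Hspa8, Cd3g, Igbp1, Slc43a2, Stx6, the surface glycoprotein Cd24a, Tomm70a and Atg16l2. Cd3g, a chain of the CD3 complex of T cells, was found in 12.8% of positive and 20.2% of negative chow cells (odds ratio 0.53) and in 18.1% and 24.5% of ketogenic cells (odds ratio 0.62). Rpl27 and Hspa8 were found in over 98% of cells, with the same limit as above. Among the 12 ILC2 markers none passed the threshold, and their median odds ratios were 1.13 and 1.11, beside 1.11 and 1.04 over all genes.

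**Figure D5:**
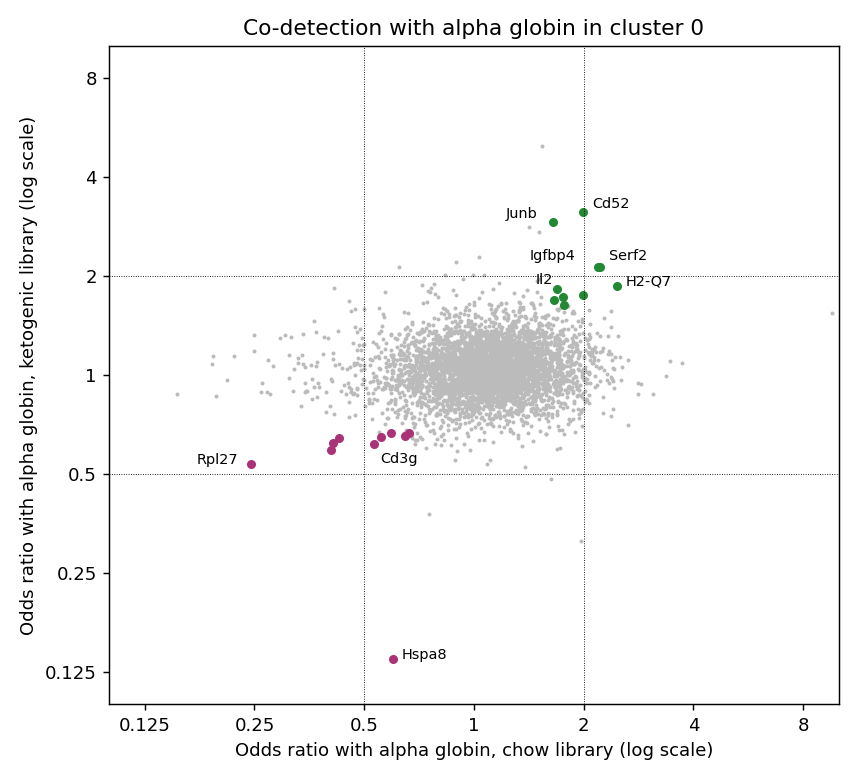
Odds ratio of detecting each of 4435 genes with alpha globin in cluster 0, chow library on the horizontal and ketogenic library on the vertical axis, both on log scales; 1 grey point per gene, the 10 highest in green and the 10 lowest in purple by the less extreme library, dotted lines at 0.5 and 2. The cloud is wider along the chow axis, which rests on 133 positive cells against 669, and Serf2 and Igfbp4 are the 2 points past 2 in both.

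Across the 13 clusters of both libraries, several genes had levels like those of Hba-a1. Over 10361 genes with at least 100 UMIs, the highest Pearson correlations of log2(CPM + 1) over the 26 values were those of Csf2 (r = 0.82), which encodes the cytokine GM-CSF, Stc2 (0.82), the prostacyclin receptor gene Ptgir (0.81), Ipmk (0.80), the chemokine receptor gene Ccr8 (0.80), Adck5 (0.80), Tuba8 (0.79), Mycn (0.78), Tanc2 (0.78) and Orc4 (0.78). Hba-a2 had r = 0.85. Without cluster 0, over 24 values, none of these 10 was again among the 10 highest and Hba-a2 had r = 0.67. The values share libraries and depth, so the correlations are a description.

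Of these 10 genes, whose choice used both cluster 0 values, 7 were higher and 3 lower in cluster 0 of the ketogenic library, each by less than alpha globin. Of all 10373 genes with at least 10 UMIs there, 53.9% were higher. Mycn, a MYC family transcription factor, went from 7.99 to 21.8 CPM, and Stc2 from 55.1 to 129 CPM. Ptgir went from 64.3 to 122 CPM and Csf2 from 607 to 813 CPM. Ipmk was lower, at 144 CPM against 215 CPM under chow.

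The genes of haem synthesis, which supply the group that globins bind, were slightly higher under the ketogenic diet. Of 12 such genes 11 had at least 10 UMIs in cluster 0, and 10 of them were higher under the ketogenic diet, with a median log2 ratio of 0.40, where list ratios have 0.5 added to each count. On that scale 0 of the 11 were 2-fold higher, while the mitochondrial transporter gene Abcb10, with 3 and 12 UMIs, had a plain CPM ratio of 2.18 [0.589–12.1]. Over all 10373 genes with at least 10 UMIs, 53.9% were higher, 3.63% at least 2-fold, and the median was 0.05. Alad, an early enzyme of the pathway, went from 46.7 to 60.6 CPM, a ratio of 1.30 [1.04–1.63]. The ubiquitous first enzyme Alas1 went from 7.99 to 12.8 CPM, 1.61 [0.941–2.87], and its red cell counterpart Alas2 had 0 UMIs in all cells of both libraries.

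Of the genes of haem breakdown and iron handling, 9 had at least 10 UMIs, and 7 of these were higher under the ketogenic diet, with a median log2 ratio of 0.16, beside 53.9% higher and a median of 0.05 over all genes. Ncoa4, the receptor for ferritin breakdown, was the 1 gene of the 9 at least 2-fold higher, from 2 and 10 UMIs, beside 3.63% of all genes, and the biliverdin reductase gene Blvra went from 34.9 to 45.4 CPM, 1.30 [1.002–1.70]. Hmox1, the inducible haem oxygenase, was lower under the ketogenic diet at 1.61 against 5.05 CPM, 0.318 [0.106–0.877]. Its 12 and 7 UMIs in cluster 0 stand beside 831 and 165 in all cells, and the macrophage markers of cluster 0 were lower as well, at 703 and 154 CPM. The transferrin receptor gene Tfrc was lower at 10.3 against 17.2 CPM, 0.599 [0.383–0.938]. The ferritin genes differed little, Fth1 standing at 2144 CPM in the chow and 2387 CPM in the ketogenic library and Ftl1 at 1376 and 1392 CPM. In the nitric oxide and redox list 4 of 7 genes with at least 10 UMIs were higher, and the median log2 ratio was 0.08, again beside 53.9% and 0.05 over all genes. Txn1, the thioredoxin gene, stood at 457 and 398 CPM, 0.871 [0.807–0.941], and the thioredoxin reductase gene Txnrd1 at 23.1 and 35.3 CPM, 1.53 [1.12–2.12]. The antioxidant genes Sod1 and Gpx1 were lower, Sod1 at 178 and 101 CPM, 0.570 [0.498–0.653], and Gpx1 at 276 and 189 CPM, 0.687 [0.619–0.762]. Over all cells Gpx1 had 30947 and 14615 UMIs. Cyb5r3, the reductase that keeps haemoglobin iron reduced, went from 21.4 to 38.3 CPM, 1.79 [1.30–2.495].

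Of 19 regulators of globin genes, 13 had at least 10 UMIs in cluster 0, while several factors known to drive globin genes in red cells were at or near the floor. Klf1 had 0 UMIs, Gata1 had 1 and 6, and Tal1, Gata2 and Nfe2 each had 0 on chow and 1 on the ketogenic diet. Gata3, the GATA factor of ILC2, stood at 583 and 722 CPM, a ratio of 1.24 [1.16–1.32], and Klf2 at 266 and 311 CPM, 1.17 [1.07–1.29]. The cofactor gene Ldb1 stood at 50.03 and 44.5 CPM, Zfpm1 at 10.9 and 12.8 CPM, Runx1 at 75.7 and 55.5 CPM and the chromatin remodeller gene Atrx at 100.9 and 114 CPM. Over the 13 regulators the median log2 ratio was −0.21, with 5 higher, 0 of them 2-fold, and 3 at least 2-fold lower, beside 4.86% of all 10373 genes at least 2-fold lower. Among these 3 was Bach1, a haem-sensing repressor, at 13.9 and 6.88 CPM, 0.496 [0.292–0.839], with 1174 and 443 UMIs over all cells. The part of the macrophage markers in the Hmox1, Gpx1 and Bach1 values was not tested. Tfcp2 was another, at 5.89 and 2.06 CPM, 0.351 [0.134–0.870].

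The neighbours of the alpha globin genes on chromosome 11 each stood below the summed alpha globin level in cluster 0. Nprl3, whose introns hold the main alpha globin enhancers, stood at 8.83 CPM in cluster 0 under chow, rank 3 among the 13 clusters, and at 14.7 CPM under the ketogenic diet, rank 1, a ratio of 1.66 [1.002–2.87]. Mpg stood at 13.03 and 9.86 CPM and Snrnp25 at 50.9 and 43.8 CPM. Hba-x and Hbq1a had 0 UMIs in all cells, and Hbq1b, which lies between the alpha genes, had 1 UMI, in the ketogenic library.

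The cytokines and other effectors of ILC2 differed less than alpha globin between the diets. Of 8, 7 had at least 10 UMIs, 4 of them were higher, beside 53.9% of all genes, and 0 differed 2-fold. Il5 was lower under the ketogenic diet, at 303 CPM against 426 CPM under chow, a ratio of 0.710 [0.653–0.771]. Calca, the gene of the neuropeptide CGRP, went from 231 to 385 CPM, 1.67 [1.51–1.84], and Csf2 had a ratio of 1.34 [1.26–1.43]. Areg, a growth factor of tissue repair, stood at 1443 and 1298 CPM. Of the 12 ILC2 markers, 4 were higher, against the same 53.9%, and 0 differed 2-fold, with a median log2 ratio of −0.18, and Il1rl1 was lower at 513 against 790.4 CPM, 0.649 [0.610–0.690].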

How the data were processed

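Single-cell libraries, 1 per diet, were made with a 10x Genomics protocol, per the labels. The submitters' processing notes name Cell Ranger, Seurat and mm10, without versions or roles. Each of the 2 matrices that the authors deposited holds unnormalised UMI counts, per the file headers and whole values, and the authors' deposited table gives each cell's cluster number at a resolution of 0.5. All 142 cells outside that table had over 5% mitochondrial UMIs and were left out. No doublet caller was run. The libraries share 41 cell barcodes.

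UMIs were summed per cluster and library and scaled to CPM with Python 3.11.15, numpy 2.4.6, scipy 1.17.1 and pandas 2.3.3. Cell types were assigned by marker lists, with a marker counting as raised at a 2-fold higher CPM + 20 than in all other clustered cells, with at least 3 raised and leading markers deciding. Intervals are 95% exact Poisson (levels), exact binomial (shares) and exact conditional (ratios), and cover counting error only. With 1 library per diet no test between diets exists. Thinned shares are exact expectations for 1000 UMIs per cell. Co-detection used genes in at least 5% of cells, and likeness genes with at least 100 UMIs. Named genes are the 2 members, the 10 highest and 10 lowest co-detection odds ratios (immunoglobulin, T cell receptor and mitochondrial genes left out), the 10 genes most like Hba-a1, and members of fixed lists. The members, lists and tests were chosen with earlier results of these data known. The co-detection and diet steps were tested on simulated data. Of 28692 gene IDs, 28339 (98.8%) matched the GENCODE M21 annotation of GRCm38, used for positions, and the 4 adult globin genes matched the RefSeq promoter table.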

Additional observations from a re-analysis of the deposited data

How the results depend on the processing

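Of 102 alternatives over 17 results, 70 gave a value inside the counting interval of the reported one (for a count, within 1.5 times of it), and 32 did not. The diet ratio stayed between 4.07 and 5.59 for Hba-a1 and between 4.38 and 5.60 for Hba-a2, and 4.07 is the Hba-a1 ratio in cells of 2500 to 3500 UMIs. With cells chosen by at least 3 UMIs of the 12 ILC2 markers in place of cluster 0 (1544 and 2457 cells, from several clusters), the alpha globin level was 47.4 and 264 CPM, the share of cells with it 9.65% and 30.6%, and the chow alpha share of globin UMIs 97.2%. The ketogenic level was 548 CPM in cells of 2500 to 3500 UMIs and 566 CPM as a mean over cells. The ketogenic ratio of cluster 0 to the other lymphoid clusters was 39.7 with the lowest cluster subtracted and 40.3 as a mean over cells. The shares of cells with alpha globin, chow then ketogenic, were 8.20% and 35.3% from 2 UMIs, 8.06% and 30.8% when thinned to 1000 UMIs, 23.2% and 60.4% in cells of at least 3000 UMIs, and 19.2% and 46.3% in cells of 2500 to 3500 UMIs. The ketogenic level of cluster 7 was 73.3 CPM without cells holding Calca or Hs3st1.

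Co-detection depended on its settings. The genes higher in both libraries numbered 13 without depth groups, 0 when thinned, 4 with positive cells from 2 UMIs, 6 among genes in at least 2% of cells and 30 at an odds ratio of 1.5. Thinning left 1924 genes to test, against 4435 in the main setting. Those lower in both numbered 1 when thinned (Rpl17), 6 among genes in at least 2% of cells, 9 at the looser odds ratio and 1 without the deepest 5% of cells (Hspa8). Of the 10 genes most like Hba-a1, 0 were again among the 10 highest without cluster 0, 1 by Spearman correlation, 6 with at least 500 UMIs and 2 with Hba-a2 in place of Hba-a1. The cause was not tested. The depth window, the shared barcodes, the upper limit of 95% of cells and the alternatives for cluster 7 were added after seeing the data.

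Intervals cover counting error alone, and a cell without an alpha globin UMI at these depths is not shown to lack the transcript. No paired analysis was possible because each diet has 1 library.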

Other observations

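The 142 cells outside the authors' clusters also held some alpha globin. The 87 such chow cells had 4 UMIs, 18.0 CPM [4.90–46.1], and the 55 ketogenic cells had 5 UMIs, 28.5 CPM [9.25–66.4].

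Outside cluster 0, alpha globin was also higher in the ketogenic library, at 13.7 CPM against 3.58 CPM under chow, a ratio of 3.83 [2.93–5.06]. In the myeloid clusters the ratio was 1.75 [1.16–2.63], and in clusters 1, 2, 4 and 11 together it was 3.11 [1.33–8.88]. Outside cluster 0 Hba-a1 had a ratio of 5.06 [3.69–7.08], with 124 of its 264 ketogenic UMIs in cluster 7. In clusters 1, 2, 4 and 11 the Hba-a1 ratio was 2.68 [1.13–7.69] and in the myeloid clusters 2.53 [1.56–4.15]. Hba-a2 had a ratio outside cluster 0 of 1.24 [0.697–2.25], though the split between the 2 genes is uncertain. In clusters 1, 2, 4 and 11 the chow library held 6 alpha and 6 beta globin UMIs, and the ketogenic library 50 and 6.

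Iglc1, an immunoglobulin light chain gene, ranked 3 by diet ratio in cluster 0, above both alpha globin genes, at 12.2 and 105.5 CPM, with its ketogenic UMIs spread over 388 cells. Iglc1 was also a leading gene of the B and plasma-like cluster 9, at 135-fold, which held 82 chow and 245 ketogenic cells. The part of stray RNA in its cluster 0 values was not tested. It was singled out after its values were seen.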
